A study of Caenorhabditis elegans with 11 samples.

Results

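The major sperm protein genes of Caenorhabditis elegans were examined in gonads of cup-4 mutants and of wild type. The members are all genes whose public name is msp- followed by a number. This rule found 31 of the 46904 gene rows, the same 31 in the mRNA table and in the table of antisense small RNA. The mutant libraries came from day-one adults of RB950, a strain with the cup-4(ok837) allele, and the wild-type libraries from day-one adults of strain N2. Antisense small RNA was sequenced in 3 cup-4 and 3 wild-type samples, and polyadenylated RNA in 3 cup-4 samples and 2 wild-type samples (replicates 2 and 3). The labels name 1 mutant strain and 1 allele, and call the tissue germline, whereas the series text speaks of gonads. A gonad also holds somatic sheath and spermatheca cells, and the samples are bulk samples.

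Major sperm proteins are the most abundant proteins of nematode sperm, where they form the filaments that drive amoeboid crawling in place of actin. Sperm also release them as a signal that makes oocytes resume meiosis and gonadal sheath cells contract. Their genes are transcribed in spermatocytes. Hermaphrodites make sperm as larvae, switch to oocytes, and keep the sperm in the spermatheca, so the gonad of a young adult is mostly an oocyte-producing organ. The family consists of many near-identical copies. Antisense small RNAs in the worm germline are made by RNA-dependent RNA polymerases on target transcripts and are bound by Argonaute proteins, of which ALG-3 and ALG-4 act in spermatogenesis.

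All 31 members are annotated as protein-coding in RefSeq on assembly WBcel235, which is the assembly called ce11 in the submitters' processing notes, and 28 of them have the same coding length of 384 bp. Levels in CPM, counts scaled to the TMM-adjusted size of each library, therefore need no correction for length among these 28 genes, although reads shared between copies leave the level of a single copy uncertain. The exceptions are msp-32 (360 bp), msp-58 (234 bp) and msp-74 (234 bp). The genes lie in 4 groups, here separated wherever neighbours are more than 300000 bp apart. The first group on chromosome II holds 10 genes between 4785898 and 5200180, from msp-3 to msp-50. The second group on chromosome II holds 3 genes between 5797065 and 5810330, namely msp-63, msp-142 and msp-64. The first group on chromosome IV holds 9 genes between 5055631 and 5316906, from msp-55 to msp-65. The second group on chromosome IV holds 9 genes between 9689015 and 10143740, from msp-76 to msp-38.

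The depth was 21290140 to 29559542 gene counts per mRNA library and 14858199 to 39310540 per small RNA library. The mRNA of cup-4 had 23, 37 and 20 counts in cup-4 gonads and 117 and 85 in wild type, lower in every library labelled cup-4 (edgeR quasi-likelihood, adjusted p 0.149). Oocyte markers summed to 24750 to 35400 CPM in cup-4 mRNA and to 21990 and 32490 CPM in wild type. Intestine markers summed to 145000, 24560 and 44940 CPM in cup-4 replicates 1, 2 and 3, mostly from vit-1 to vit-6. In wild-type replicates 2 and 3 they summed to 5074 and 4176 CPM, again mostly from those genes. In mRNA, wild-type replicate 3 stood apart in its sperm genes, and the family's mRNA sum and median are given with and without it. The series text calls the replicates biological and names no separate cultures, so p-values measure the spread between these samples.

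In mRNA most copies followed much the same order of libraries, with wild-type replicate 3 lowest. Of 29 members with at least 20 counts in total, wild-type replicate 2 was highest for 20 and cup-4 replicate 1 for 9. Summed over the 31 members, msp mRNA was 1016, 640.1 and 337 CPM in cup-4 replicates 1, 2 and 3, and 1062 and 69.6 CPM in wild-type replicates 2 and 3. The cup-4 libraries therefore lay inside the range of the wild-type libraries, with a mean of 664 ± 340.5 CPM (SD, n = 3) against 566 ± 702 CPM in wild type (SD, n = 2). The 2 wild-type libraries differed by a factor of 15.3, and the cup-4 libraries by up to a factor of 3.02. In a bulk sample, fewer sperm-forming cells and less msp RNA per cell cannot be told apart. As a share of all gene counts, msp counts were 0.0915%, 0.0683% and 0.0324% in cup-4 and 0.121% and 0.00660% in wild type. Intervals given here are 95% Wilson intervals and cover the error of counting alone, as no molecular identifiers mark independent molecules.

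**Figure D1:**
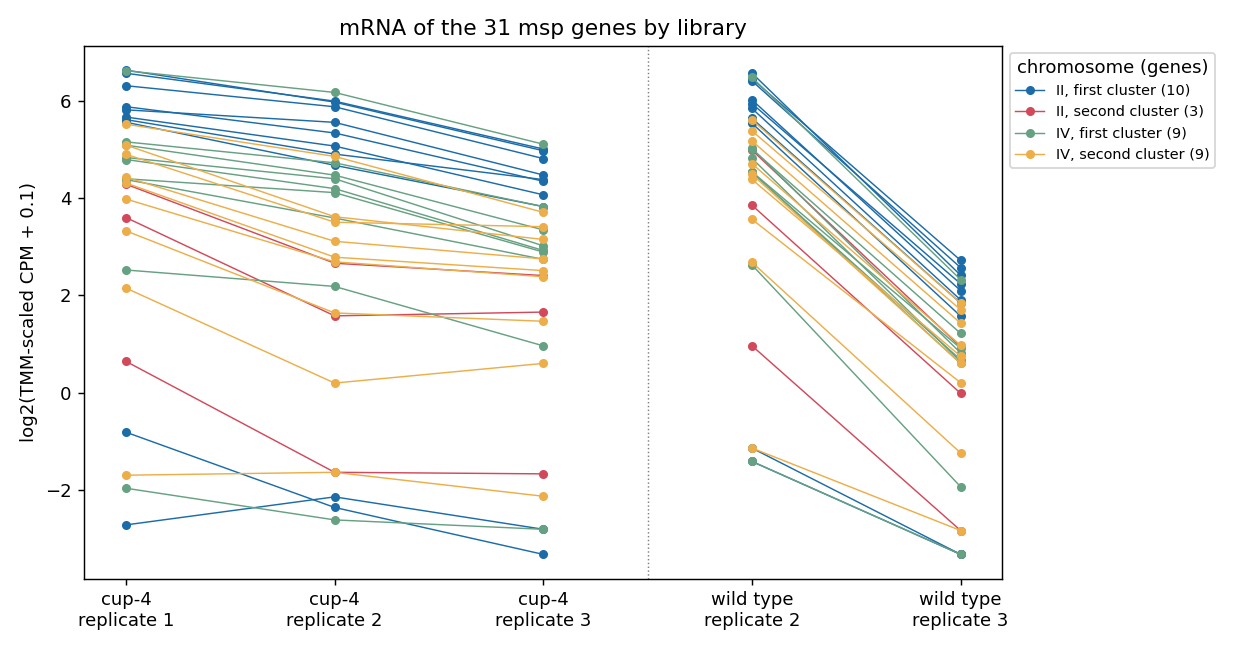
mRNA of the 31 msp genes as log2 of TMM-scaled CPM plus 0.1 in 3 cup-4 and 2 wild-type libraries, with 1 line per gene coloured by chromosomal group and replicates in number order only. Wild-type replicate 3 is the lowest library for 28 of the 29 members with at least 20 counts in total. Wild-type replicate 2 is the highest for 20 of them and cup-4 replicate 1 for 9.

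Within batches, here libraries with the same replicate number in their titles, the direction was opposite. In batch 2, all 31 members with more than 3 counts in a library were lower in cup-4 than in wild type, and the family sum was 0.603 times the wild-type sum. In batch 3, all 27 such members were higher in cup-4, and the sum was 4.83 times the wild-type sum. Batch 1 has no wild-type mRNA library here. Shares over all genes were not counted for these pairs of single libraries. Without wild-type replicate 3 the ratio of mean sums was 0.625, and it was 9.54 with that replicate kept and replicate 2 left out. It was 0.863 without cup-4 replicate 1, so leaving out either of 2 libraries turns its direction.

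The fold between the 2 wild-type libraries was much alike across copies. Among 26 members with more than 3 counts in wild-type replicate 3, replicate 2 over replicate 3 ranged from 11.1 for msp-77 to 37.5 for msp-51, with a median of 15.4. The median over all 11877 genes tested with more than 3 counts in that library was 1.00, and 1.81% of them reached the lowest msp ratio. This comparison of 2 single libraries has no replicate check. It was chosen after the values were seen.

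The most abundant copies by mean mRNA level were msp-59, msp-45, msp-40, msp-50, msp-49 and msp-31, and these 6 held 48.2% of the summed mean level of the family. All encode major sperm protein. Reads aligned to several places had a summary row of their own, left out here, so copies can be undercounted and this ranking is uncertain. The level of msp-59 was 97.8, 71.7 and 34.3 CPM in cup-4 replicates 1, 2 and 3 and 88.9 and 4.90 CPM in wild-type replicates 2 and 3. That of msp-45 was 94.3, 63.4 and 31.99 CPM in cup-4 and 94.4 and 5.22 CPM in wild type. That of msp-40 was 98.5, 62.5 and 31.2 CPM in cup-4 and 84.5 and 5.83 CPM in wild type. In these 3 genes cup-4 replicate 1 and wild-type replicate 2 were high, wild-type replicate 3 was lowest, and the genotypes overlapped. The level of msp-50 was 78.9, 58.5 and 27.9 CPM in cup-4 and 87.2 and 6.47 CPM in wild type. That of msp-49 was 56.0, 46.8 and 22.1 CPM in cup-4 and 61.2 and 4.61 CPM in wild type. That of msp-31 was 58.5, 40.2 and 20.2 CPM in cup-4 and 64.5 and 4.17 CPM in wild type. These 3 were highest in wild-type replicate 2 and lowest in wild-type replicate 3, with the cup-4 libraries in between.

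Tested gene by gene, no msp gene passed the threshold between genotypes in mRNA. Of the 31 members, 27 passed the filter on low counts, and 0 had an adjusted p under 0.05 in edgeR's quasi-likelihood test, against 0% of the 12861 genes tested. None of the 27 had an unadjusted p under 0.05, against 17.2% of all genes tested (10.8% higher and 6.35% lower in cup-4). In 0 of the 27 did the genotypes not overlap, against 20.1% of all genes without overlap and higher in cup-4 and 17.8% without overlap and lower. DESeq2 also called 0 of the 27, against 8.29% of all genes. The fit with no filter on low counts called 0 of 31 members, against 1.49% of all genes, and the fit with the replicate block 0 of 27, against 1.55%. The smallest adjusted p was 0.796. The log2 fold change, cup-4 over wild type, was above 0 in 17 of the 27, against 59.4% of all genes. It ran from -0.70 for msp-64 to 0.57 for msp-55, with a median of 0.21 against 0.16 for all genes tested. Standard errors (SE) ran from 0.95 to 1.47 with a median of 1.03, against a median of 0.44 for all genes. The log2 fold change was 0.53 (SE 1.05) for msp-59, 0.34 (SE 1.04) for msp-45, 0.50 (SE 1.01) for msp-40 and 0.23 (SE 0.97) for msp-50. It was 0.34 (SE 0.95) for msp-49 and 0.21 (SE 1.00) for msp-31. The family median was 3.18 when wild-type replicate 2 was left out and -0.78 when wild-type replicate 3 was, and with total counts it turned to -0.011, with the median of all genes at 0.058. It was -0.32 without cup-4 replicate 1 and 0.52 without cup-4 replicate 3. With the replicate block it was 0.72 and in limma-voom 1.08, again with 0 members called.

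The 4 members below the filter, msp-32, msp-58, msp-74 and msp-79, had at most 9 mRNA counts in any library. Of these, msp-32 had 1, 4 and 1 counts in cup-4 and 7 and 0 in wild type, and msp-58 had 3, 2 and 1 counts in cup-4 and 7 and 0 in wild type. The counts of msp-74 were 9, 3 and 0 in cup-4 and 9 and 0 in wild type, and those of msp-79 were 4, 7 and 3 in cup-4 and 9 and 1 in wild type. All but msp-79 are the members with shorter coding sequences.

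With all 5 libraries, the sign of the small mRNA differences split by chromosomal position, and leaving out 1 library could remove the split. All 8 tested genes of the first group on chromosome II and all 8 of the first group on chromosome IV had a positive log2 fold change, with medians of 0.29 and 0.37. All 3 genes of the second group on chromosome II had a negative one, with a median of -0.60, as did 7 of 8 tested genes of the second group on chromosome IV, with a median of -0.25. The exception was msp-38 (0.16, SE 1.01), the last gene of its group. All 27 values were positive without wild-type replicate 2 and in limma-voom, and all 27 were negative without wild-type replicate 3. When cup-4 replicate 1 was left out, 2 of 8 genes of the first group on chromosome IV were positive and 0 in the other groups. Without cup-4 replicate 3, 5 of 8 genes of the second group on IV were positive, and with the replicate block 4 of 8 were. No single value passed the test, and grouping by position was chosen after the values were seen.

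Shares within the family do not depend on library scaling, and they separated the same groups. The second group on chromosome IV held 17.7%, 12.2% and 15.96% of msp counts in cup-4 replicates 1, 2 and 3, and 20.1% and 22.3% in wild-type replicates 2 and 3. The second group on chromosome II held 3.23%, 1.46% and 2.51% in cup-4 and 4.49% and 3.95% in wild type. Both shares were lower in every cup-4 library than in every wild-type library. The first group on chromosome IV held 26.6%, 30.1% and 26.6% in cup-4 and 24.1% and 21.7% in wild type, and the first group on chromosome II held 52.4%, 56.3% and 54.9% in cup-4 and 51.3% and 52.1% in wild type. These 2 shares were higher in every cup-4 library. Counting error does not separate all libraries on chromosome II. There the interval of wild-type replicate 3 includes the value of cup-4 replicate 1 in both the first group (49.8% to 54.5%) and the second (3.13% to 4.98%). No test was run, since the groups were picked from these values.

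**Figure D2:**
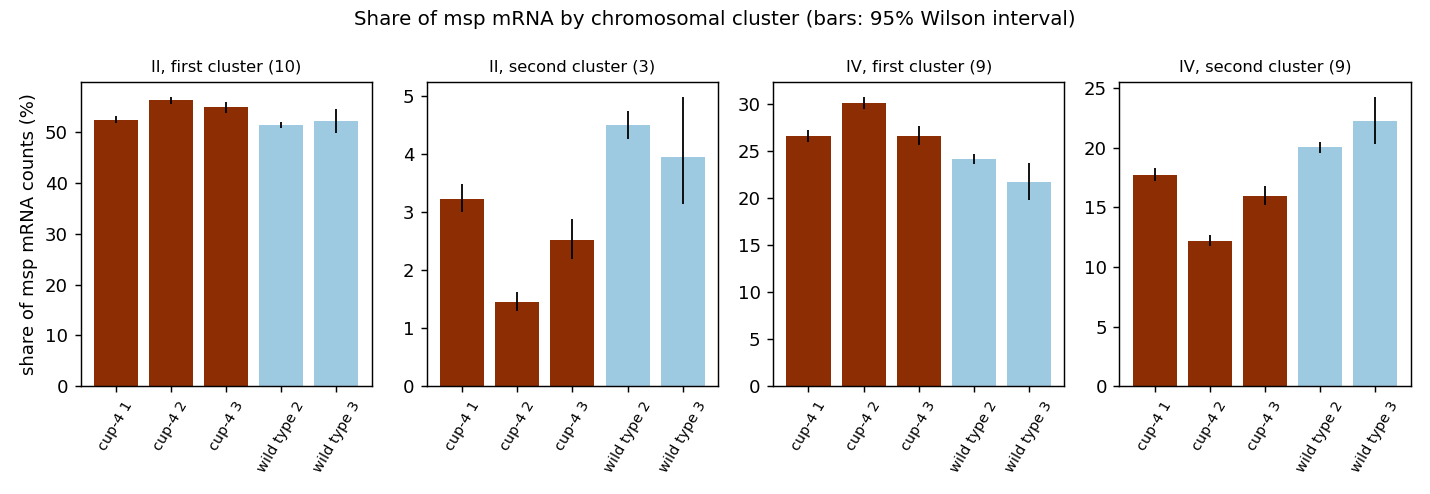
Share of each library's msp mRNA counts (percent) held by each chromosomal group of msp genes, cup-4 libraries in brown and wild-type libraries in blue, with 95% Wilson intervals for counting error. The second groups of chromosomes II and IV took smaller shares in all 3 cup-4 libraries than in both wild-type libraries.

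The same groups differed among the cup-4 libraries themselves. The level in cup-4 replicate 1 over that in cup-4 replicate 2 had a median of 1.501 over 8 genes of the first group on II and of 1.36 over 8 genes of the first group on IV, with no value above 1.85. The ratio was 3.12 for msp-64 and 4.16 for msp-142 on chromosome II. In the second group on IV it had a median of 2.72 and reached 4.14 for msp-10, while msp-38 had 1.58. In single libraries, msp-64 had 19.4, 6.21 and 5.20 CPM in cup-4 replicates 1, 2 and 3 and 31.5 and 1.82 CPM in wild-type replicates 2 and 3. By comparison, msp-55 of the first group on IV had 35.4, 26.3 and 14.04 CPM in cup-4 and 32.3 and 1.66 CPM in wild type. Reads that aligned to several places were 12.97%, 5.54% and 9.32% of all reads in cup-4 replicates 1, 2 and 3 and 12.1% and 10.3% in wild-type replicates 2 and 3, and their part in these ratios was not tested.

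Other genes of sperm formation were compared to see how far they followed the family. Of 8 genes that act on msp transcription or on packing and moving the protein, with more than 3 counts in wild-type replicate 3, 2 had a ratio of wild-type replicate 2 to 3 at or above the lowest msp ratio, namely gsp-3 and gsp-4, which encode sperm phosphatases. Of 9 other genes with a major sperm protein domain, 6 did (msd-4, ssp-9, ssp-10, ssp-16, ssp-19 and ssp-35). Of 22 further sperm genes, 5 did, namely cylc-2, smz-2 and the sperm chromatin genes spch-1, spch-2 and spch-3. Over all genes tested with more than 3 counts in that library, 1.81% did. The median ratio was 4.51 in the 8 genes, 13.5 in the 9 and 5.29 in the 22, against 1.00 over all those genes. It ranged from 0.71 to 24.2 in the 8, from 0.89 to 32.2 in the 9 and from 0.40 to 29.6 in the 22. None of 14 oocyte, 13 intestine, 7 muscle and sheath, 4 spermatheca, 3 coelomocyte or 5 neuron markers reached the lowest msp ratio. The level of spch-1, the most abundant of these, was 97.0, 30.96 and 18.9 CPM in cup-4 and 93.5 and 4.45 CPM in wild type. That of spch-3 was 78.0, 32.99 and 16.2 CPM in cup-4 and 63.6 and 4.69 CPM in wild type, the same order of libraries within each genotype as in the msp genes.

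The most abundant of the 10 factor genes, spe-39 and spe-44, did not show this order. The gene spe-44, which encodes a transcription factor of sperm formation, had 34.95, 42.8 and 31.4 CPM in cup-4 and 40.2 and 41.9 CPM in wild type. The gene spe-39, which acts in vesicle trafficking during sperm formation and in other tissues, had 68.0, 89.5 and 76.3 CPM in cup-4 and 69.7 and 98.1 CPM in wild type. Neither passed the threshold in edgeR's quasi-likelihood test (adjusted p 0.724 and 0.869). The gene spe-6, named after its values were seen, encodes a kinase needed to assemble the protein into fibrous bodies. It had 15.1, 16.5 and 18.1 CPM in cup-4 and 25.8 and 34.1 CPM in wild type, without overlap, and its log2 fold change of -0.85 (SE 0.23) did not pass (adjusted p 0.163). In the 10-gene list of these factors, 0 of 9 genes tested passed in either direction, and the median log2 fold change was 0.45.

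In the other lists 0 genes passed in mRNA as well. The genes with a major sperm protein domain outside the family had a median log2 fold change of 0.20 over 12 tested, and the further sperm genes one of 0.33 over 22. Among the genes with that domain, vpr-1, a widely expressed relative, had 88.6, 115 and 95.2 CPM in cup-4 and 112 and 126 CPM in wild type. In the same list, ssp-37 had 77.9, 81.3 and 41.7 CPM in cup-4 and 43.1 and 21.6 CPM in wild type (log2 fold change 1.05, SE 0.42, edgeR adjusted p 0.281). The genes of the response to the sperm signal had a median of 0.080 over 14. Their most abundant members, oma-2 and oma-1, encode RNA-binding proteins of maturing oocytes. The level of oma-2 was 467, 524 and 506 CPM in cup-4 and 549 and 632 CPM in wild type, and that of oma-1 was 385, 423 and 428 CPM in cup-4 and 374 and 512 CPM in wild type. In the list of Argonautes and small RNA factors the median was 0.54 over 7. Its most abundant members were the Argonaute genes wago-1, at 777, 1028 and 1043 CPM in cup-4 and 725 and 1242 CPM in wild type, and csr-1, at 293, 248 and 382 CPM in cup-4 and 335 and 491 CPM in wild type.

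Sums of 3 of the 5 somatic marker lists were higher in every cup-4 library than in every wild-type library in mRNA, whereas the msp sums overlapped. The summed spermatheca markers were 1006, 691 and 1057 CPM in cup-4 and 257 and 632 CPM in wild type, and muscle and sheath markers 3957, 894 and 2489 CPM in cup-4 and 805 and 524 CPM in wild type. Most of the spermatheca sum was fln-1, at 965, 674 and 1031 CPM in cup-4 and 247 and 620 CPM in wild type. Most of the muscle and sheath sum came from unc-54, unc-15 and lev-11, and lev-11 overlapped between genotypes. The log2 fold change was positive in all 4 spermatheca markers and in 6 of 7 muscle and sheath markers, with lim-7 at -0.038 (SE 0.54). Neuron marker sums were lower in every cup-4 library, at 58.2, 58.4 and 53.1 CPM in cup-4 and 74.0 and 60.3 CPM in wild type. Most of that sum was snb-1, at 43.7, 49.1 and 44.3 CPM in cup-4 and 65.1 and 53.3 CPM in wild type. Of the 5 neuron markers 3 had a positive log2 fold change, and the median of the list was 0.38. Coelomocyte marker sums overlapped, at 113, 101 and 120.1 CPM in cup-4 and 106 and 148 CPM in wild type. Most of each sum was cup-5, and the list holds cup-4 itself. The remaining gene, unc-122, had 1.88, 1.17 and 1.46 CPM in cup-4 and 0.87 and 0.89 CPM in wild type. Of the 13 intestine markers all were higher in cup-4, 11 with an unadjusted p under 0.05, against 10.8% of all genes tested, and 0 passed the adjusted threshold. By library, cup-4 replicate 1 had both the largest intestine sum and the largest cup-4 msp sum. Wild-type replicate 2 had a like msp sum with a much smaller intestine sum. Most of each intestine sum came from the vitellogenin genes vit-1 to vit-6. The most abundant other intestine marker, asp-1, had 659, 587 and 495.5 CPM in cup-4 and 189 and 139 CPM in wild type. The part of these tissues in the msp values was not tested.

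Antisense small RNA over the msp genes was scarce, with a higher mean in cup-4 and overlap between the genotypes. The family summed to 72.6, 66.2 and 47.6 CPM in cup-4 replicates 1, 2 and 3 and to 18.4, 50.9 and 25.5 CPM in wild-type replicates 1, 2 and 3. Cup-4 replicate 3 lay below wild-type replicate 2, so the genotypes overlapped. The means were 62.1 ± 12.96 CPM in cup-4 and 31.6 ± 17.1 CPM in wild type (SD, n = 3 each), a ratio of 1.97. These sums rest on 1243, 1016 and 1129 counts in cup-4 and on 338, 2030 and 574 counts in wild type. Without TMM scaling, cup-4 replicate 3 had 51.2 CPM (Wilson interval 48.3 to 54.3) and wild-type replicate 2 had 51.6 CPM (49.4 to 53.9), which counting error alone does not separate.

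With libraries paired by replicate number, the direction was the same in each batch. The family sum in cup-4 was 3.94, 1.30 and 1.87 times that in wild type in batches 1, 2 and 3. Of the members with more than 3 counts in a library of the batch, 27 of 28 were higher in cup-4 in batch 1, 22 of 28 in batch 2 and 21 of 27 in batch 3. Shares over all genes were not counted for these pairs of single libraries. The pairs rest on the titles alone, and their deviations from the genotype means correlated at only 0.083, 0.091 and 0.15. As cup-4 replicate 3 (47.6 CPM) was below wild-type replicate 2 (50.9 CPM), another pairing can turn a ratio. Without wild-type replicate 2 the ratio of mean sums was 2.83, and leaving out wild-type replicate 1 gave 1.63.

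**Figure D3:**
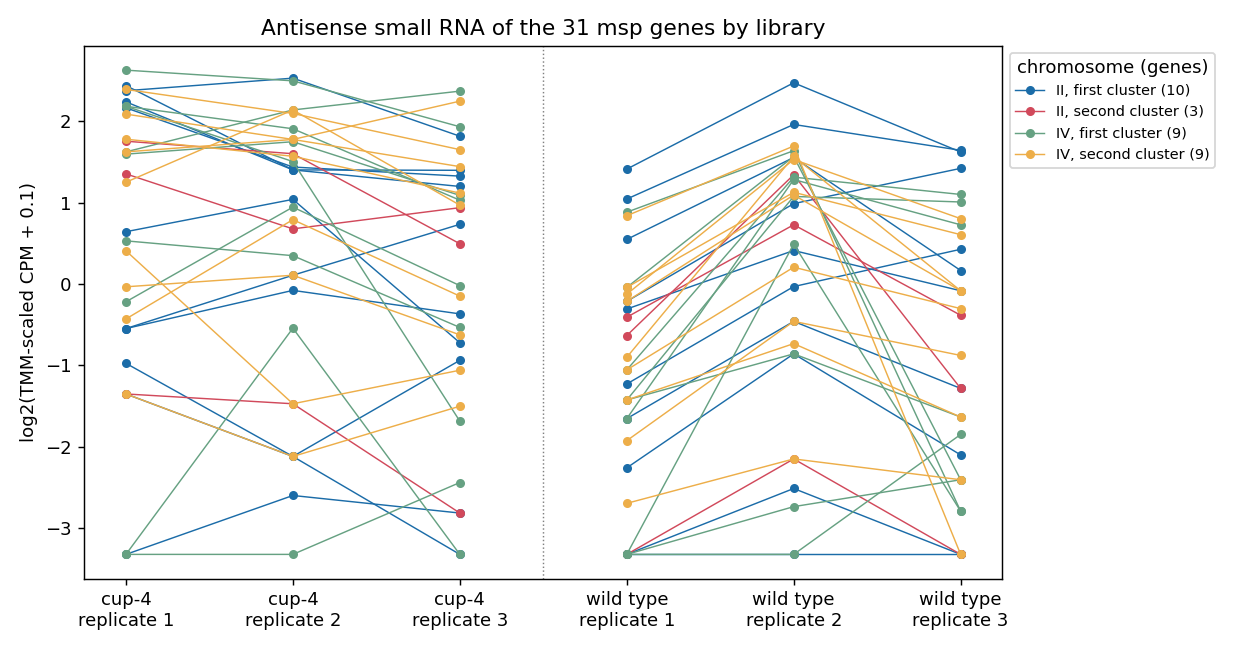
Antisense small RNA of the 31 msp genes as log2 of TMM-scaled CPM plus 0.1 in 3 cup-4 and 3 wild-type libraries, with 1 line per gene coloured by chromosomal group and replicates in number order only. Wild-type replicate 1 or 3 is the lowest library for 23 of 26 members with at least 20 counts in total, and wild-type replicate 2 is the lowest for 0 of them.

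The copies with the most antisense small RNA were msp-50, msp-19, msp-40, msp-81, msp-77 and msp-57, which held 40.9% of the summed mean level. How small RNA reads shared between copies were assigned is unknown, so this ranking and the levels of single copies are uncertain. The level of msp-50 was 5.08, 5.67 and 3.42 CPM in cup-4 and 2.56, 5.44 and 2.97 CPM in wild type. That of msp-40 was 4.38, 2.61 and 2.40 CPM in cup-4 and 1.96, 3.79 and 3.02 CPM in wild type. In msp-40 the genotypes overlapped in several libraries, and in msp-50 only wild-type replicate 2 lay within the range of the cup-4 libraries. The level of msp-19 was 6.07, 5.54 and 3.71 CPM in cup-4 and 1.74, 3.01 and 0.044 CPM in wild type. That of msp-57 was 2.98, 4.30 and 5.06 CPM in cup-4 and 0.38, 2.38 and 2.04 CPM in wild type. That of msp-81 was 4.15, 3.32 and 4.64 CPM in cup-4 and 0.82, 2.78 and 1.64 CPM in wild type. In these 3 every cup-4 library was above every wild-type library. The level of msp-77 was 5.14, 4.17 and 3.04 CPM in cup-4 and 1.69, 3.14 and 0 CPM in wild type, where cup-4 replicate 3 lay just under wild-type replicate 2. The 0 in wild-type replicate 3 was a count of 0, which allows up to 3 counts.

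No msp gene passed the test in antisense small RNA. Of the 31 members, 23 passed the filter on low counts, and 0 had an adjusted p under 0.05 in edgeR's quasi-likelihood test, against 1.12% of the 13336 genes tested (0.78% higher and 0.337% lower in cup-4). An unadjusted p under 0.05 with a higher level in cup-4 was found for 5 of the 23, against 11.7% of all genes tested, and 0 of the 23 had one with a lower level, against 11.1% (22.8% in either direction). Of the 23, 7 did not overlap between genotypes and were higher in cup-4, against 15.8%, and 0 were lower without overlap, against 14.8%. All 23 had a positive log2 fold change, against 50.7% of all genes tested, with a median of 1.03 and a range from 0.084 for msp-40 to 1.63 for msp-19. The filter admits a low-count gene through the group in which it is high, so this count says little of the 8 others. Over all 31 members the cup-4 mean was above the wild-type mean in 29, the exceptions being msp-152 and msp-51. The smallest adjusted p was 0.125, for msp-55.

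Single copies carried wide errors. The log2 fold change was 1.33 (SE 0.57, edgeR adjusted p 0.223) for msp-57, 1.18 (SE 0.42, adjusted p 0.168) for msp-81 and 1.63 (SE 0.90, adjusted p 0.319) for msp-19. It was 1.31 (SE 1.01) for msp-77, 0.35 (SE 0.35) for msp-50 and 0.084 (SE 0.35) for msp-40, with adjusted p-values of 0.471, 0.579 and 0.909. Without a filter on low counts, 4 members passed, msp-57 (adjusted p 0.00479), msp-81 (0.0166), msp-36 (0.0272) and msp-65 (0.0274), in a fit that called 5.2% of 31750 genes. With wild-type replicate 2 left out, 2 passed, msp-36 (0.0375) and msp-113 (0.0382), and 2.95% of genes tested were called. DESeq2 called 0 of the 23 members, against 9.43% of all 13336 genes tested, and gave no adjusted p to 7 of the 23. Genes without an adjusted p count as not called in both. Every other alternative called 0 members. Of all genes, those alternatives called 1.1% with RLE size factors, 1.12% with TMM without the msp genes, 1.64% with total counts, 1.39% in limma-voom, 1.97% with the replicate block, 2.17% among genes with a mean count of at least 50 and 2.89% in batches 2 and 3 alone. With 1 replicate left out they called 0.497%, 0.0935% and 0.333% (cup-4 replicates 1, 2 and 3) and 2.87% and 0.453% (wild-type replicates 1 and 3). The family median was 1.70 with wild-type replicate 2 left out, 0.73 with wild-type replicate 1 left out and 0.54 in batches 2 and 3 alone.

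**Figure D4:**
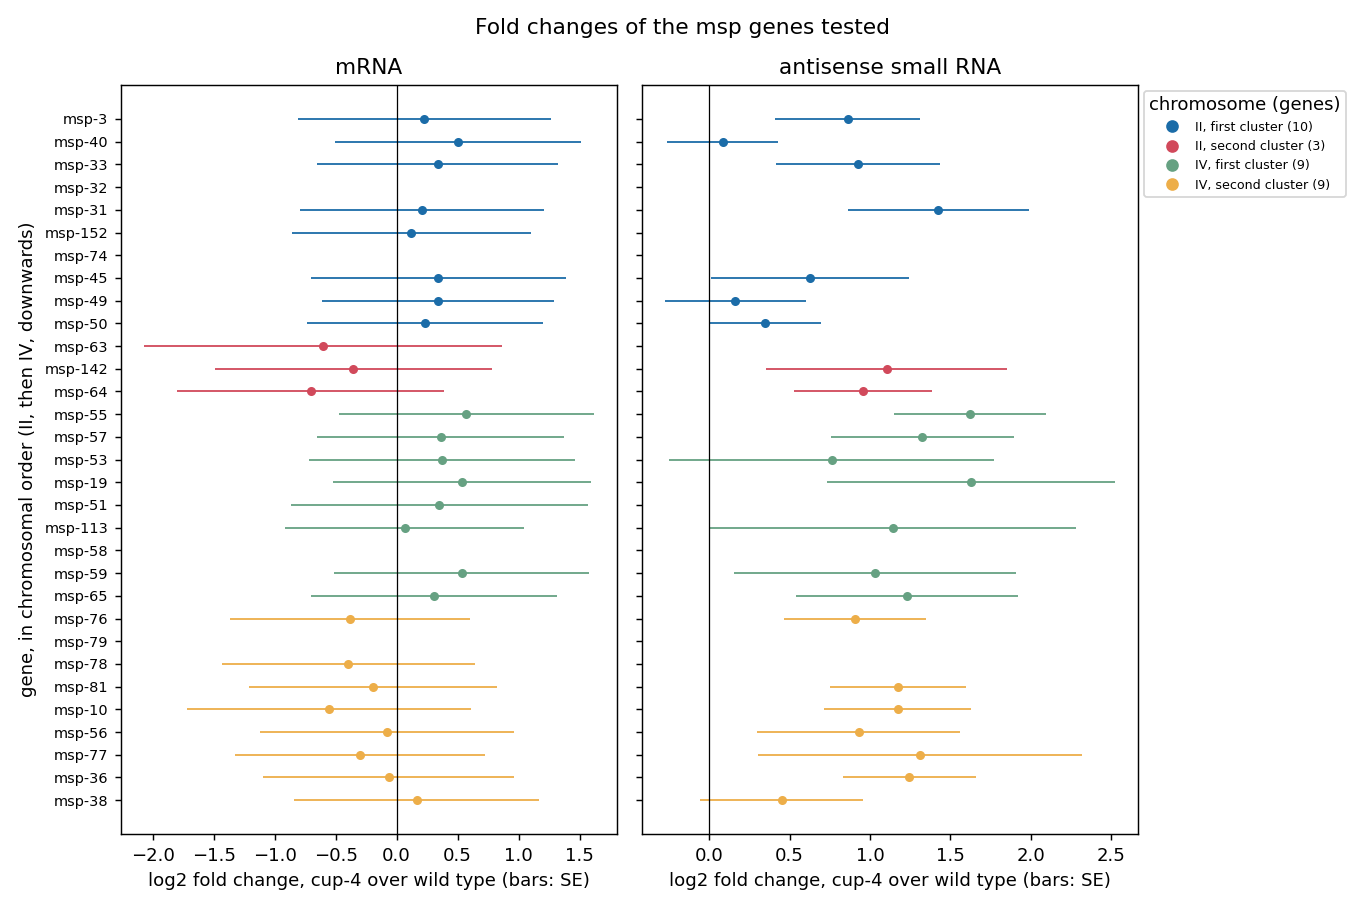
Log2 fold change, cup-4 over wild type, with its SE for each msp gene tested, in mRNA (left, 27 genes) and in antisense small RNA (right, 23 genes), ordered by chromosomal position and coloured by group. In mRNA the SE is 0.95 to 1.47 and with all 5 libraries the sign follows the group except for msp-38, a split that is gone when either wild-type library is left out and in limma-voom, while in small RNA all values are above 0, with msp-40 at 0.084 the lowest.

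Fold changes in small RNA did not split by position as in mRNA. Medians were 0.63 over 7 genes of the first group on II, 1.03 over 2 of the second, 1.23 over 7 of the first group on IV and 1.17 over 7 of the second. The share of msp small RNA in the first group on II was 31.3%, 26.4% and 28.9% in cup-4 and 43.5%, 33.8% and 47.6% in wild type, lower in every cup-4 library. That of the first group on IV was 31.6%, 34.8% and 30.5% in cup-4 and 20.4%, 28.3% and 24.2% in wild type, higher in every cup-4 library. Counting error does not separate wild-type replicate 2 from the nearest cup-4 library in either group: the interval of cup-4 replicate 1 on II was 28.8% to 33.9%, and that of cup-4 replicate 3 on IV was 27.9% to 33.2%. The shares of the other groups overlapped.

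Most other sperm genes tested also had a positive log2 fold change in antisense small RNA, though none passed the threshold. The same held for all 8 intestine markers tested. Among genes with a major sperm protein domain outside the family, 0 of 13 tested passed the threshold, 12 had a positive log2 fold change, 9 of these with an unadjusted p under 0.05, and the median was 1.36. Of the further sperm genes 0 of 23 passed, 19 were positive, 7 of them with an unadjusted p under 0.05, and the median was 1.06. Over all genes tested, 50.7% were positive, 11.7% were higher with an unadjusted p under 0.05, and the median was 0.0065. The smallest adjusted p in these lists was 0.121 (ssp-33) and 0.132 (spch-2). Antisense small RNA of spch-1, named after its values were seen, was 51.03, 46.2 and 42.9 CPM in cup-4 and 7.89, 30.7 and 16.7 CPM in wild type, without overlap. The 2 most abundant genes of this list, spe-47 and spe-41, overlapped between genotypes. The level of spe-47 was 142, 161 and 112 CPM in cup-4 and 128, 148 and 157 CPM in wild type, and that of spe-41, a calcium channel gene, was 56.4, 54.6 and 47.2 CPM in cup-4 and 42.1, 47.9 and 53.0 CPM in wild type.

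Factors of msp expression and packing had a median of 0.64 over 10 tested, with 0 passing, and spe-39 was at 77.9, 79.4 and 91.6 CPM in cup-4 and 83.3, 82.7 and 74.5 CPM in wild type, and spe-44 at 14.1, 12.96 and 12.99 CPM in cup-4 and 15.7, 13.2 and 12.7 CPM in wild type. Genes of the response to the sperm signal had a median of -0.030 over 11. Argonaute and small RNA genes had a median of -0.16 over 7, and 0 passed in either list. Antisense small RNA of intestine markers summed to 83.4, 59.97 and 46.7 CPM in cup-4 and 40.4, 32.4 and 22.8 CPM in wild type. All 8 intestine markers tested had a positive log2 fold change, against 50.7% of all genes tested, with a median of 1.02. Of these, 6 had an unadjusted p under 0.05 in edgeR's quasi-likelihood test, against 11.7% of all genes, and 0 passed the threshold. Muscle and sheath markers summed to 211, 190.3 and 167 CPM in cup-4 and 198, 233 and 227 CPM in wild type. The part of intestine, muscle and sheath in the msp values was not tested.

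The copies ranked differently in the assays. Within single libraries of the 5 samples that share genotype and replicate number, the Spearman rho between mRNA and antisense small RNA over the 31 members was 0.36 to 0.62, a description over genes that share reads. Among 26 members whose mean mRNA level was 1 CPM or more, small RNA per 1000 mRNA CPM ran from 10.3 CPM for msp-51 to 505 CPM for msp-77, with a median of 87.3 CPM. The abundant mRNAs of msp-31 and msp-152 had 12.4 and 10.4 CPM of small RNA per 1000, and those of msp-50 and msp-40 had 80.9 and 53.6 CPM. Of the 6 copies with the most mRNA, msp-50 and msp-40 were also among the 6 with the most small RNA.

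**Figure D5:**
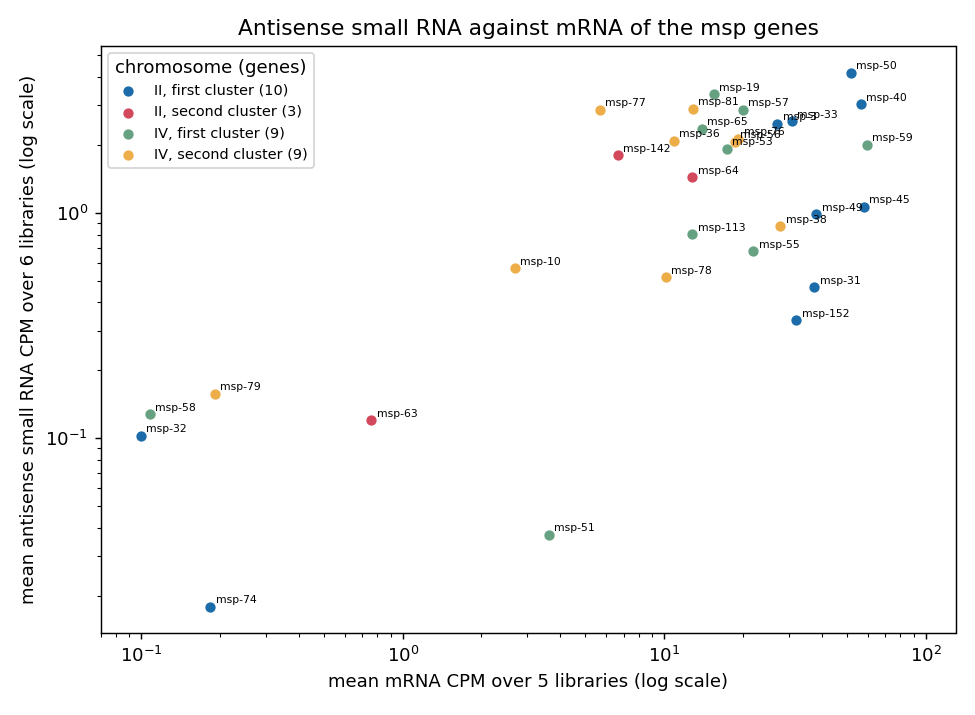
Mean antisense small RNA CPM over 6 libraries against mean mRNA CPM over 5 libraries for the 31 msp genes, both on log scales, coloured by chromosomal group. The 5 members under 1 CPM in mRNA are low in both assays, and among the rest msp-77 and msp-51 lie farthest apart in small RNA per mRNA.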

How the data were processed

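The authors deposited raw counts of reads per gene for both assays, without normalization. Per the labels, small RNA counts are antisense to the gene. The submitters' processing notes name FastQC, cutadapt, HISAT2, HTSeq and DESeq2 and the build ce11, with no role. Versions and the use of strand are not given in the sources used here. Summary rows, 13.4% to 23.8% of mRNA reads and 44.0% to 49.1% of small RNA reads, were left out. In mRNA, reads aligned to several places had a summary row of their own, so msp levels and sums can lack reads shared between copies. That row was 0 in small RNA, so how reads shared between copies were assigned is unknown there. Symbols matched 44017 of 46904 identifiers. RefSeq lists 4 more msp genes, all pseudogenes, with no identifier to match, and these are not analysed here.

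Genotypes were compared in R 4.3.3 with edgeR 4.0.16 (quasi-likelihood, robust, TMM, filterByExpr, genotype only, each assay alone), with Benjamini-Hochberg adjustment over all genes and a threshold of 0.05. SE is the absolute log2 fold change over the square root of F. CPM use TMM-scaled library sizes. The fit was also run on simulated data, the outcome of which is not given here. Alternatives used DESeq2 1.42.0 and limma 3.58.1. Sums and medians over the members are descriptions without a test. Replicates of a genotype differed beyond counting noise in every pair (smallest ratio of chi-square to degrees of freedom 20.3).

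Batch here means the replicate number in the sample titles, and libraries with the same number were compared as pairs. The titles do not say that such libraries were handled together. Deviations from the genotype means of same-number libraries correlated at 0.083, 0.091 and 0.15 in small RNA (replicates 1, 2 and 3) and at -0.13 and 0.49 in mRNA (replicates 2 and 3). The genes given in every library are the 6 most abundant members per assay and the members with the largest and smallest fold change, and 2 genes per other list, unless said otherwise. Members and lists were chosen with earlier results of these data known.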

Additional observations from a re-analysis of the deposited data

How the results depend on the processing

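In mRNA 0 members were called in the main comparison and in all 14 alternatives, including the replicate block (0 members, 1.55% of all genes). Leaving out a replicate moved the median log2 fold change between -0.78 and 3.18 and the ratio of summed levels between 0.625 and 9.54, both by the wild-type library left out. With 1 wild-type library left, that library is assumed to vary like the others. The alternatives for the summed levels were added after seeing the data. In batches 2 and 3 alone, the same libraries as without cup-4 replicate 1, log2 fold changes turned to -0.16 (msp-45), -0.048 (msp-40), -0.22 (msp-50), -0.035 (msp-49) and -0.29 (msp-31). In limma-voom msp-64 turned to 0.074, and with total counts msp-31 turned to -0.011. The cause was not tested. Leaving out a replicate gave -0.46 to 3.79 for msp-59, -0.65 to 3.59 for msp-45, -0.48 to 3.45 for msp-40, -0.74 to 3.09 for msp-50, -0.63 to 3.17 for msp-49, -0.78 to 3.25 for msp-31, -0.43 to 3.92 for msp-55 and -1.70 to 2.48 for msp-64. In antisense small RNA, leaving out a replicate gave 0 to 2 members called, a median of 0.73 to 1.70 and a ratio of summed levels of 1.63 to 2.83, and no filter gave 4 members called, while the other alternatives gave 0. The replicate block gave 0 called and a median of 1.26, and changed no call on a member. Here msp-40 turned to -0.45 in batches 2 and 3 alone and ranged from -0.24 to 0.32 when a replicate was left out. The small RNA medians stayed positive in all 15 alternatives. Summing copies with identical proteins was not run, since no protein sequences were used here. In small RNA 9 of 31 members had a mean count of at least 50, and the fit limited to genes with that mean called 0 of them.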

Other observations

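In antisense small RNA some copies had few or no counts in single libraries although the family was present. How reads shared between copies were assigned is unknown, and the part of this in the low counts was not tested. A copy was listed where its count in a library was at least 5 times below the count that its share of the family in the other libraries would give, with at least 10 such counts. There were 5 cases, 4 of them in wild-type replicate 3. In cup-4 replicate 3, msp-53 had 5 counts where its share would give 53.4. In wild-type replicate 3, msp-77 had 0 counts where its share would give 37.9, msp-19 had 1 where it would give 42.8, msp-59 had 2 where it would give 27.7, and msp-113 had 1 where it would give 11.4. These copies lie in the first and second groups on chromosome IV. The rule was made after the values were seen, and no test was run.

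The relation between the assays differed between libraries of the same label. Summed msp small RNA per summed msp mRNA, as a ratio of CPM, was 0.071, 0.103 and 0.142 in cup-4 replicates 1, 2 and 3 and 0.048 and 0.366 in wild-type replicates 2 and 3. Wild-type replicate 3, with the least msp mRNA, had the most small RNA relative to it, and wild-type replicate 2, with the most msp mRNA, had the least. The divisor of this ratio was 69.6 CPM in wild-type replicate 3 and 1062 CPM in replicate 2. The small RNA sums, 25.5 and 50.9 CPM, differed far less, so the order of the ratio mostly follows from the mRNA sums. The labels do not say that libraries with one number came from the same RNA. The Argonaute genes alg-3 and alg-4, which act in spermatogenesis, were highest in cup-4 replicate 1. The mRNA of alg-3 was 41.3, 7.16 and 4.60 CPM in cup-4 and 6.69 and 1.70 CPM in wild type (edgeR adjusted p 0.410). That of alg-4 was 34.4, 7.92 and 2.92 CPM in cup-4 and 7.56 and 1.66 CPM in wild type (edgeR adjusted p 0.507). Both genes were named after their values were seen.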
